A study of Mus musculus with 36 samples.

Results

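The genes that take up and metabolise glutamate in brain cells were followed across sorted mouse brain populations. The 7 genes, chosen by name, are Slc1a2, Slc1a3, Slc1a1, Slc1a4, Glul, Glud1 and Got1. They were taken from 25631 genes to which the deposited transcripts could be assigned by position, and all 7 were among the 13668 genes that reached 1 FPKM in 2 or more libraries. FPKM is a fragment number scaled to transcript length and to the mapped fragments of the library, so levels of different genes can be set side by side.

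RNA was sequenced from 36 libraries of brain cells of C57/Bl6 mice, in 18 groups of 2 libraries each. Each of 3 brain regions (olfactory bulb, cortex, brainstem) gave 6 sorted populations, which are called Neg and A to E. Every group carries the cell type label astrocyte, and no treatment or age is labelled. The meaning of Neg and the antigens used in the sort are not stated in the labels. Nor is it stated whether libraries of one group are from different animals, and p-values therefore cover the spread among libraries alone, which may be technical. The cDNA kit keeps no strand information, and a gene's reads cannot be told apart from those of an antisense partner.

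Glutamate released at synapses is cleared from the extracellular space by sodium-dependent transporters of the SLC1 family, most of it by astrocytes. Inside astrocytes, glutamine synthetase converts glutamate to glutamine, which is returned to neurons and turned into glutamate again, a loop known as the glutamate-glutamine cycle. Glutamate dehydrogenase and the aspartate aminotransferases instead feed glutamate carbon into energy metabolism.

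Astrocyte markers were present in every population but at different levels. The summed FPKM of 20 astrocyte markers lay between 90.7 and 284 in the 6 Neg libraries, between 292 and 753 in population E, and between 1456 and 2875 in population C. All 20 were higher in the lettered populations (A to E) than in Neg, with a median log2 difference of 2.25. Other cell types were present too. The summed microglial markers reached 866 to 1473 FPKM in population B and at most 606 elsewhere. Oligodendrocyte markers summed to 1970.4 to 7243 FPKM in Neg, and their highest sums were 13846 in A, 4951 in B, 8749 in C, 11100 in D and 9037 in E. Ependymal and choroid plexus markers summed to 35.6 to 23740.5 FPKM in C and to at most 5674 elsewhere. In such bulk samples, fewer cells of a type and less RNA per cell cannot be told apart.

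Some libraries stood apart. Summed nuclear FPKM ranged from 23005 to 163132, and 8 libraries (3 of Neg, 1 of A, 1 of D and 3 of E) had under 5000 genes at 1 FPKM or more. A further 2 libraries, those labelled brainstem D 2 and cortex E 2, went against their region labels. Olfactory bulb genes averaged 1.86 and 1.19 in them on the log2(FPKM + 1) scale, against at most 0.58 in any other cortex or brainstem library. The library numbers in the titles fall into separate series of 21 and 15 libraries, and nothing says that they mark a batch. The former holds all of Neg and C and the latter all of D and E. Comparisons of D and of E with Neg therefore lie wholly across the series. Since the summed FPKM varied this widely, each test was run on the deposited values and again after every library was rescaled to the same sum, and both are given where they differ.

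Glul and Slc1a2 were the most abundant of the 7 genes. Over the 30 lettered libraries the median was 374 FPKM for Glul, 297 for Slc1a2, 92.0 for Slc1a3, 59.0 for Glud1, 10.6 for Got1, 6.58 for Slc1a4 and 1.23 for Slc1a1. Population C was the exception in this order, since its median Slc1a2 (755 FPKM) exceeded its median Glul (633 FPKM). In Neg, median Glud1 (25.5 FPKM) exceeded median Slc1a3 (19.1 FPKM).

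**Figure D1:**
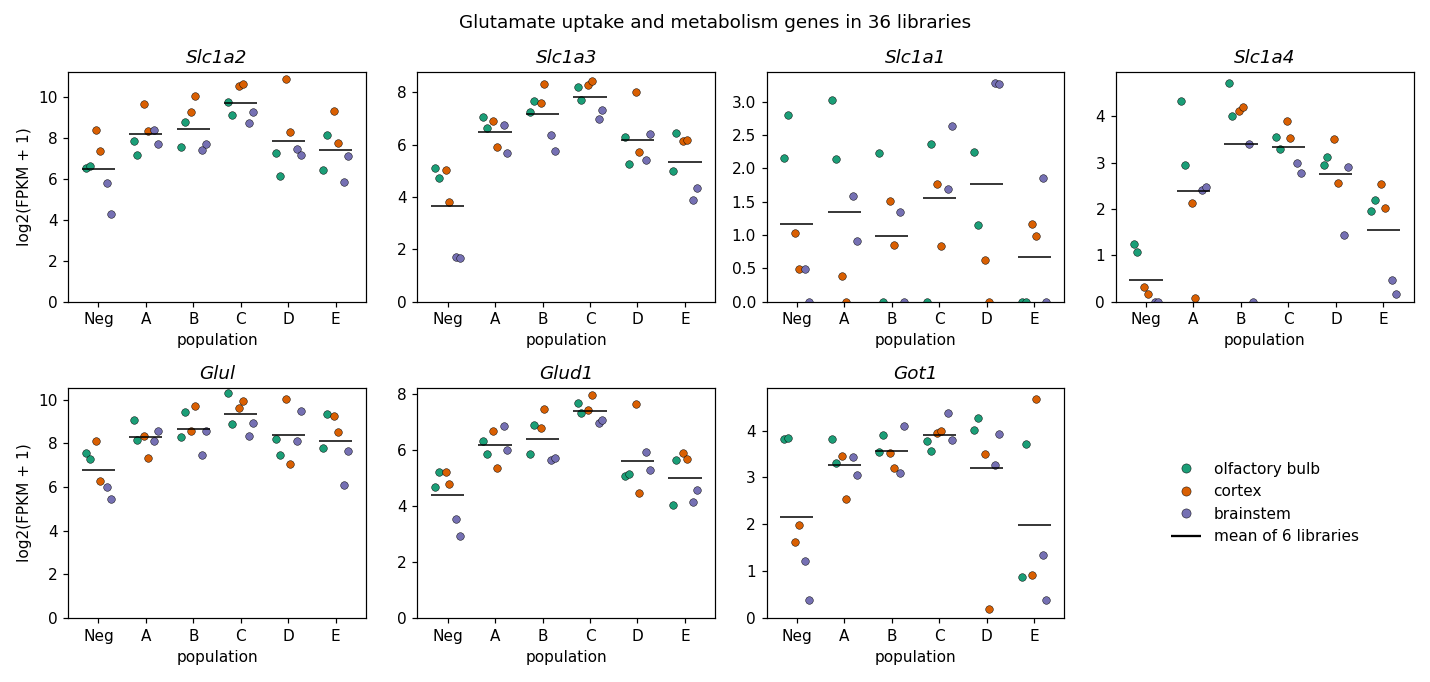
Level of each gene, as log2(FPKM + 1), in all 36 libraries by population, with region shown by colour and a line at the mean of the 6 libraries of each population. Slc1a3 in populations A, B, C and D lies above every Neg library, whereas Slc1a1 overlaps in all populations.

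Compared with Neg, 5 of the 7 genes were higher over the lettered populations as deposited: Slc1a2, Slc1a3, Slc1a4, Glul and Glud1 (limma on log2(FPKM + 1), adjusted p under 0.05). None was lower. Their background was broad, since 20.4% of all 13668 genes were called (20.3% as higher) and the median log2 difference of all genes was 0.51, against 1.77 for the 7 genes. After rescaling, which lowered the median of all genes to 0.27, only Slc1a3 and Slc1a4 remained called, against 2.78% of all genes. Quantile normalization, with a median of 0.00 over all genes, left Slc1a2, Slc1a3 and Slc1a4 called. All comparisons with Neg share the same 6 control libraries.

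Slc1a2 encodes GLT-1 (EAAT2), the main glutamate transporter of forebrain astrocytes, and lies at chr2:102658659-102790784 on the plus strand (GRCm38). The deposited tables split its signal between a transcript that starts at position 102658683 and another that starts 47755 bases downstream, at 102706438. The promoter entry used here, from RefSeq (GRCm38.p6), lies at the downstream start, and the upstream start is not analysed here. Its 250 bases are printed beside those of Slc1a3, since the levels of these transporters are compared by region below. A link between either window and that comparison was not tested. Searched on both strands were the GC box letters GGGCGG, the CAAT box letters CCAAT, the TATA box letters TATAAA, the cyclic AMP response element letters TGACGTCA and the nuclear factor I letters TTGGC. Matches to the CAAT box on the other strand can overlap those of nuclear factor I, and capitals mark each match.
Slc1a2, chr2:102706188-102706437, plus strand: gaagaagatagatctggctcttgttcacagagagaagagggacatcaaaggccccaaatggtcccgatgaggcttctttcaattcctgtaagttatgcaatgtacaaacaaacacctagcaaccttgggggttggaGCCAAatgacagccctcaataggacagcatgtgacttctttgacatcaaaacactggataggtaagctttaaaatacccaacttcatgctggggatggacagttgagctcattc
Slc1a3, chr15:8710808-8711057, minus strand: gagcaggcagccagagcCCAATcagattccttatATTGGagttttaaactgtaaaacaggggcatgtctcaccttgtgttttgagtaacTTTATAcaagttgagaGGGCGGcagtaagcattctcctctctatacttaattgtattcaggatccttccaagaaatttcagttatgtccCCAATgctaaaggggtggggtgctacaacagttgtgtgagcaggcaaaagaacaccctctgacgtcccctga
The Slc1a2 window held 1 TTGGC on the other strand and none of the other letters, and the Slc1a3 window held 3 CCAAT, 1 GGGCGG and 1 TATAAA. Among 32851 RefSeq promoter windows of this length, 41.5% held TTGGC, 33.8% CCAAT, 32.7% GGGCGG and 12.4% TATAAA. These matches describe the letters and nothing more.

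In the 6 Neg libraries, Slc1a2 ranged from 18.7 FPKM through a median of 94.6 to 339.8. The lowest, median and highest values were 143, 279 and 809 FPKM in A, 171, 323 and 1063 in B, and 431, 755 and 1626 in C. In D they were 71.0, 166 and 1929, and in E 56.7, 176 and 651. Every C library exceeded every Neg library, whereas 1 of 6 did so in A, 3 in B, 1 in D and 1 in E. After rescaling the counts were 2 in A, 1 in B, 4 in C, 2 in D and 1 in E. Set against the 2 Neg libraries of their own region only, 25 of 30 lettered libraries exceeded both, or 21 of 30 after rescaling. This bar is never higher than that of all 6 Neg libraries, so these counts cannot be the smaller ones.

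The difference of Slc1a2 from Neg was 1.83 ± 0.37 on the log2 scale (SE, limma adjusted p = 0.0015) as deposited. It was 0.68 ± 0.22 after rescaling (adjusted p = 0.10), so the call was lost there, although it held under quantile normalization (0.84, adjusted p = 0.034). It was lost as well without the 8 libraries under 5000 genes (1.45, adjusted p = 0.053). Using only the transcript with the highest mean, a part of the signal that varied with population, lost it too (0.93, adjusted p = 0.23). Population C was the exception, with 3.19 ± 0.47 as deposited (adjusted p = 3.65e-05) and 1.48 ± 0.29 after rescaling (adjusted p = 0.0041).

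The share of Slc1a2 FPKM given to the transcript from the upstream start varied with population. Its lowest, median and highest values were 0%, 13.5% and 28.4% in Neg and 0%, 9.15% and 25.8% in E. They were 13.9%, 33.9% and 71.3% in A, 44.5%, 64.0% and 87.6% in B, 16.3%, 49.8% and 69.6% in C, and 10.9%, 42.8% and 100% in D. Every B library lay above every Neg and every E library. These shares are estimates that Cufflinks made from reads which both transcripts mostly share, and they were not tested. B libraries also had the highest coverage divided by FPKM, a relative measure of depth, at 2.72 to 4.08 against at most 2.37 elsewhere. The part of depth in these shares was not tested.

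**Figure D2:**
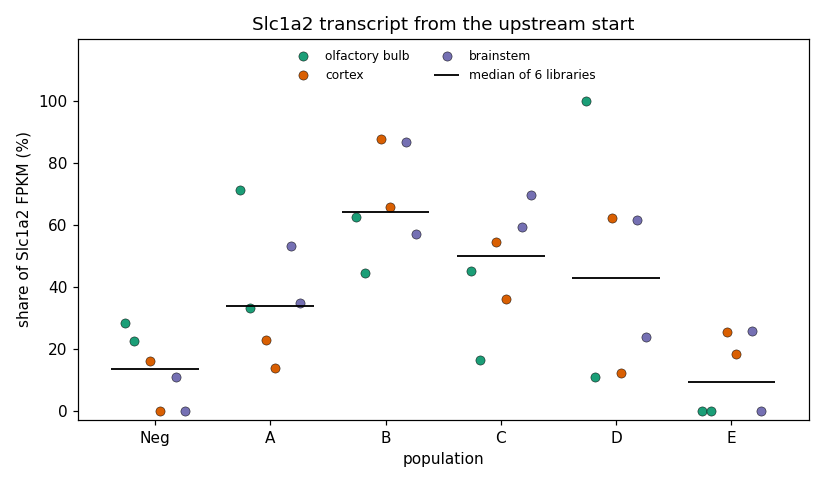
Share of Slc1a2 FPKM, in percent, that was assigned to the transcript from the upstream start, in each library by population, with region shown by colour and a line at the median of 6 libraries. Neg and E libraries lie at or below 28.4%, and B libraries at or above 44.5%.

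Slc1a3 encodes GLAST (EAAT1), the glutamate transporter of radial glia, Bergmann glia and other astrocytes, and lies at chr15:8634124-8710764 on the minus strand. It ranged from 2.18 FPKM through a median of 19.1 to 33.1 in Neg. The lowest, median and highest values were 49.99, 103 and 132 FPKM in A, 53.7, 171 and 322 in B, and 124, 251 and 347 in C. They were 37.4, 64.0 and 259.9 in D and 13.7, 50.5 and 86.7 in E. All 24 libraries of A, B, C and D exceeded every Neg library, and 3 of the 6 E libraries did. After rescaling it was 5 of 6 in A, B and E, 6 in C and 4 in D.

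Slc1a3 was 2.93 ± 0.33 higher on the log2 scale in the lettered populations than in Neg (limma adjusted p = 1.4e-05), the largest difference of the 7 genes as deposited. It was 1.95 ± 0.21 after rescaling (adjusted p = 6.2e-06), and it was called under each of the 12 other settings tried, which gave 1.78 to 3.64. Using the highest transcript alone or adding a transcript to Slc1a1 could not change Slc1a3, since a single transcript held all its signal. By population the differences were 2.82 in A, 3.49 in B, 4.15 in C and 2.51 in D, all called, and 1.66 in E (adjusted p = 0.36). After rescaling, E too differed from Neg, by 1.61 ± 0.27 (adjusted p = 0.0032). Measured against the mean of the astrocyte markers in the same library, Slc1a3 was 0.58 higher in the lettered populations than in Neg as deposited (exact permutation within regions, two-sided, adjusted p = 0.019). After rescaling this was 0.06 (adjusted p = 0.91) and with a pseudocount of 0.1 it was 0.22 (adjusted p = 0.58), so the call was lost, and leaving out any of 4 of the Neg libraries (olfactory bulb 2, cortex 2, brainstem 1 or brainstem 2) gave adjusted p of 0.065 to 0.13. That test called 0 of 98 such comparisons without the libraries under 5000 genes, against 9 with them. As deposited, Slc1a3 was the only member that was higher on this measure. Slc1a1, with many values near 0, was called lower (-2.24, exact permutation adjusted p = 0.010), as was Glud1 (given below). Slc1a2 (-0.51, adjusted p = 0.16), Slc1a4 (-0.12, 0.86), Glul (-0.57, 0.27) and Got1 (-1.31, 0.071) were lower without a call.

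Slc1a1 encodes EAAC1 (EAAT3), a transporter found mainly in neurons, and lies at chr19:28835049-28913960 on the plus strand. It was near the floor of the data, from 0 to 8.76 FPKM over all 36 libraries with a median of 1.13. The median was 0.72 FPKM in Neg, 1.45 in A, 1.17 in B, 2.32 in C, 2.48 in D and 0.49 in E, with at least 1 library at 0 in each. The groups overlapped throughout. Its difference from Neg was 0.10 ± 0.34 (limma adjusted p = 0.82), and it was negative, without a call, after rescaling (-0.86, adjusted p = 0.66). A transcript that matched Slc1a1 and the antisense gene 4430402I18Rik equally well was left out, and adding it gave 0.24 (adjusted p = 0.57). Of 12 neuronal markers, 0 were higher and 1 was lower, and their median log2 difference was -0.05. The background was not flat, since all 13668 genes had a median of 0.51. Of these, limma called 20.3% as higher but only 0.154% as lower. As deposited, Slc1a1 and the median neuronal marker therefore both lay below the median of all genes.

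Relative to Slc1a3, Slc1a1 was lower in the lettered populations. The log2 ratio averaged -5.34 ± 1.52 (SD, n = 30) there and -2.51 ± 1.07 (SD, n = 6) in Neg, a difference of -2.82 (exact permutation within regions, two-sided, adjusted p = 0.00015). After rescaling the adjusted p was 0.079, and many Slc1a1 values were at or near 0.

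Slc1a4 encodes ASCT1, a carrier of alanine, serine, cysteine and threonine from the same family, and lies at chr11:20302180-20332713 on the minus strand. In Neg it was at most 1.37 FPKM, with both brainstem libraries listed at 0. The lowest, median and highest values were 0.062, 4.44 and 19.2 FPKM in A, 0, 15.6 and 25.4 in B, and 5.88, 9.70 and 14.0 in C. They were 1.71, 6.58 and 10.4 in D and 0.12, 2.96 and 4.78 in E. All C and D libraries, 5 of 6 in both A and B, and 4 of 6 in E exceeded every Neg library.

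The difference of Slc1a4 from Neg was 2.22 ± 0.36 (limma adjusted p = 0.00018), and it stayed called under each of the 12 other settings. As for Slc1a3, the highest transcript alone and the addition to Slc1a1 could not change it. The size of the difference depended on how low values were treated, from 1.82 under quantile normalization to 3.77 with a pseudocount of 0.1. Slc1a4 was highest in B by mean (13.9 ± 8.52 FPKM, SD, n = 6), whereas Slc1a2, Slc1a3, Glul, Glud1 and Got1 were highest in C. After rescaling this was so of Slc1a2, Slc1a3 and Glud1, while Glul was highest in E and Got1 in D. The B and C values of Slc1a4 did not differ beyond their spread (0.06 ± 0.46, adjusted p = 0.98).

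Glul encodes glutamine synthetase, the enzyme that makes glutamine from glutamate and ammonia, and lies at chr1:153899944-153909723 on the plus strand. The lowest, median and highest values were 43.4, 115 and 275 FPKM in Neg, 161, 308 and 534 in A, and 176, 381 and 835 in B. They were 319.9, 633 and 1258 in C, 133, 282 and 1066 in D, and 66.4, 296 and 647 in E. All C libraries exceeded every Neg library, as did 5 of 6 in both A and B and 3 of 6 in both D and E. After rescaling the counts were 5 in E, 4 in C and 2 each in A, B and D. Glul was 1.77 ± 0.39 higher in the lettered populations (limma adjusted p = 0.0031), and 0.62 ± 0.23 higher after rescaling, where it was not called (adjusted p = 0.15), nor was it under quantile normalization (0.57, adjusted p = 0.16) or without the libraries under 5000 genes (1.28, adjusted p = 0.13).

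Glud1 encodes mitochondrial glutamate dehydrogenase, which converts glutamate to alpha-ketoglutarate, and lies at chr14:34310727-34345265 on the plus strand. The lowest, median and highest values were 6.57, 25.5 and 35.7 FPKM in Neg, 40.2, 70.2 and 115 in A, and 48.6, 82.5 and 173 in B. They were 123, 165 and 246 in C, 21.2, 35.8 and 199.7 in D, and 15.1, 35.3 and 58.7 in E. Every library of A, B and C lay above every Neg library, and 3 of 6 did so in D and in E. After rescaling this held for 3 of 6 in A, 1 in B, 5 in C, 1 in D and 0 in E. The difference from Neg was 1.72 ± 0.35 (limma adjusted p = 0.0018) as deposited and 0.61 ± 0.23 after rescaling (adjusted p = 0.16), with 0.52 (adjusted p = 0.23) under quantile normalization. Against the astrocyte markers of the same library, Glud1 was 0.63 lower in the lettered populations than in Neg (exact permutation, adjusted p = 0.011), a call lost on leaving out olfactory bulb Neg 2, cortex Neg 2 or brainstem Neg 1 (adjusted p from 0.054 to 0.089). That call was lost as well without the libraries under 5000 genes.

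Got1 encodes the cytosolic aspartate aminotransferase, a part of the malate-aspartate shuttle, and lies at chr19:43499752-43524605 on the minus strand. The lowest, median and highest values were 0.30, 2.53 and 13.3 FPKM in Neg, 4.79, 9.35 and 13.1 in A, and 7.52, 10.6 and 16.1 in B. They were 10.9, 13.7 and 19.9 in C, 0.14, 12.2 and 18.3 in D, and 0.30, 1.204 and 24.7 in E. The highest Neg values were the olfactory bulb ones, 13.1 and 13.3 FPKM, and 9 of the 30 lettered libraries exceeded them, or 2 of 30 after rescaling. Over the lettered populations the difference from Neg was 1.04 ± 0.43 (limma adjusted p = 0.080), and 0.19 ± 0.57 after rescaling (adjusted p = 0.88). Got1 passed the threshold with array quality weights and in the first number series alone (1.45), which holds no D or E library. It also passed on leaving out cortex D 2, olfactory bulb E 1 or cortex E 1, with values of 1.13 to 1.16 and limma adjusted p of 0.025 to 0.042.

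Taken by population, the number of the 7 genes called higher than Neg was 4 in A, where 3.22% of all genes were called, and 6 in B, where 42.3% were (41.7% as higher). It was 6 in C (40.2% of all genes, 40.1% as higher), 2 in D (4.1%, 4.08% as higher) and 0 in E (0%). The 4 in A were Slc1a2, Slc1a3, Slc1a4 and Glud1, the 2 in D were Slc1a3 and Slc1a4, and Slc1a1 was the gene not called in B and C. In E, limma gave unadjusted p under 0.05 for 3 of the 7 genes and for 766 of all 13668. After rescaling the counts were 1 in A (beside 0.327% of all genes), 2 in B (8.21%), 4 in C (4.47%), 2 in D (0.369%) and 1 in E (1.18%). Without the libraries under 5000 genes no gene was called in A or in D. The count in A rested on single libraries too, at 1 without any of the Neg libraries olfactory bulb 1 or 2, cortex 2 or brainstem 2, or of the A libraries olfactory bulb 1, cortex 1 or brainstem 1, and at 2 without olfactory bulb A 2. In D it was 6 without cortex D 2.

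**Figure D3:**
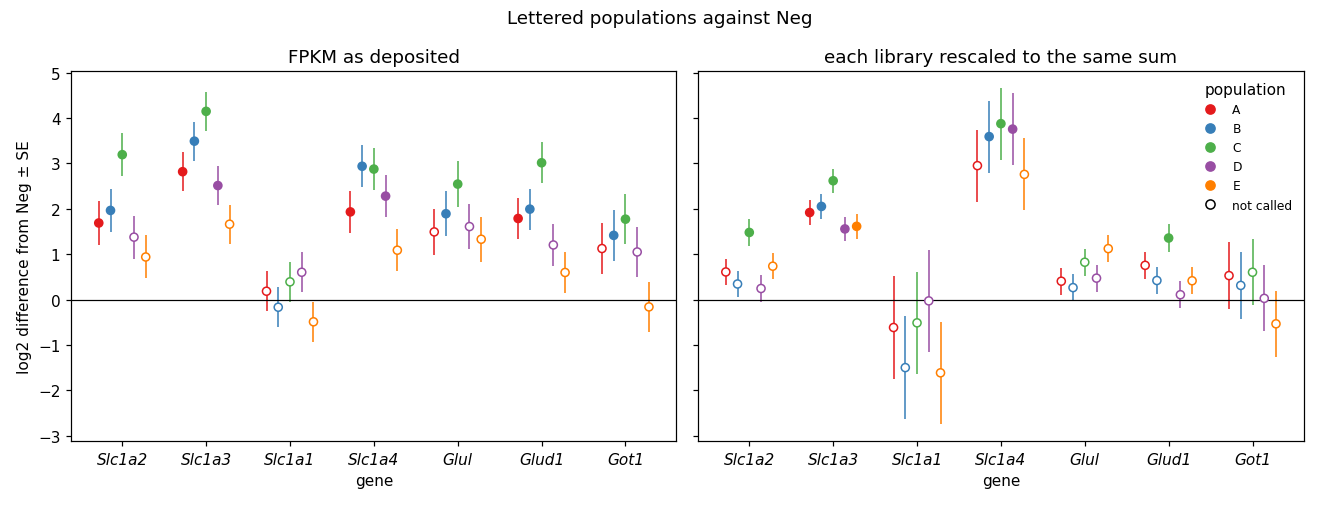
Log2 difference of each lettered population from Neg with its standard error, for each gene, from deposited FPKM (left) and after rescaling each library to the same sum (right), with filled symbols for adjusted p under 0.05. Slc1a3 is filled for all 5 populations on the right, and its C value is the highest of the left panel at 4.15.

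Between lettered populations, C against E had the most of the 7 genes called. There 6 were higher in C, in a comparison that called 43.3% of all genes (43.2% as higher, 0.0878% as lower), with Slc1a3 at 2.49 ± 0.43 (limma adjusted p = 0.00020), Glud1 at 2.42 ± 0.45 (adjusted p = 0.00039) and Slc1a2 at 2.26 ± 0.47 (adjusted p = 0.00090). After rescaling, which called 11.5% of all genes there, Slc1a3 (1.01, adjusted p = 0.018) and Glud1 (0.94, adjusted p = 0.042) remained called, while Glul turned to -0.30 without a call. In B against E, 4 of 7 were higher in B (Slc1a3, Slc1a4, Glud1 and Got1), beside 42.9% of all genes (42.7% as higher, 0.249% as lower). After rescaling, the one called there was Glul, at -0.86 ± 0.30 (adjusted p = 0.046), and 1 of 7 was near the 17% of all genes called (1.62% as lower). In C against D, 3 were higher in C (Slc1a2, Slc1a3 and Glud1, 1.64 to 1.82, adjusted p from 0.039 to 0.044), beside 1.77% of all genes (1.74% as higher), and none was called after rescaling or without the libraries labelled brainstem D 2 and cortex E 2. The count in C against D was 0 without any one of olfactory bulb C 1, cortex C 1 or 2, brainstem C 1 or 2, olfactory bulb D 2, cortex D 2 or brainstem D 2, and 1 without either olfactory bulb Neg, brainstem Neg or olfactory bulb A library, which enter the shared spread. That in B against E was 2 without olfactory bulb B 2 or olfactory bulb E 1. All E and D libraries belong to the later number series, and all C libraries and all of B but brainstem B 2 to the earlier one. A fit that held a series term called 0 of 7 genes in B against E, C against D and C against E. Only cortex A, brainstem A and brainstem B hold libraries of both series. The term thus rests on few libraries and cannot tell series from population in these pairs.

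In the other 7 pairs, 0 of 7 genes were called by limma, with 0 to 5 of them at an unadjusted p under 0.05. The share of all genes called was 5.36% in A against B (0.176% as higher in A, 5.19% as lower), 0% in both A against C and A against D, and 5.14% in A against E (5.13% as higher, 0.00732% as lower). It was 1.73% in B against C (1.57% as higher in B, 0.168% as lower), 7.44% in B against D (7.18% as higher, 0.263% as lower) and 4.32% in D against E (4.29% as higher). By mean level, the order for Slc1a3 and Glud1 was C, B, A, D, E and Neg, and for Slc1a2 it was C, D, B, A, E and Neg. After rescaling, the order of Slc1a3 was the same, that of Glud1 was C, A, B, E, D and Neg, and that of Slc1a2 was C, A, D, E, B and Neg. Leaving out cortex D 1 gave 2 calls in both A against E and B against D, leaving out cortex D 2 gave 2 in A against E and 4 in D against E, leaving out cortex E 2 gave 1 in both A against E and D against E, and leaving out brainstem B 2 gave 1 in A against B. Neighbours in the deposited orders of the 7 genes did not differ by limma, except Slc1a2 between C and D. The D mean of Slc1a2, 464 ± 722 FPKM (SD, n = 6), rested on the library labelled cortex D replicate 1 at 1929 FPKM, beside 71.0 to 312 in the other 5.

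Regions were compared over the lettered populations. Slc1a2 was highest in the cortex, with a lowest, median and highest value of 213, 730.1 and 1929 FPKM in 10 libraries, against 71.0, 209.6 and 883 in the olfactory bulb and 56.7, 193 and 626 in the brainstem. In the cortex libraries it measured 809 and 329 FPKM in A, 621 and 1063 in B, 1520.1 and 1626 in C, 1929 and 312 in D, and 651 and 213 in E. The ranges of the regions overlapped over all populations, but in 4 of 5 populations both cortex libraries exceeded both olfactory bulb libraries, and in 4 of 5 both brainstem libraries.

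Slc1a2 was lower in the olfactory bulb than in the cortex by -1.66 ± 0.37 (limma adjusted p = 0.0063), the only one of the 7 genes called in a comparison that called 3.75% of all genes (3.1% as higher, 0.644% as lower). It was 1.796 ± 0.37 higher in the cortex than in the brainstem (adjusted p = 0.0052), where 2 of the 7 genes and 1.79% of all genes (1.31% as higher) were called. Both held after rescaling (-1.66, adjusted p = 7.6e-05, and 1.85, adjusted p = 1.6e-05), and leaving out the 2 libraries that went against their region labels gave -1.82 and 1.92. With the first number series alone, the cortex-brainstem difference of Slc1a2 was 1.70 with a limma adjusted p of 0.10. With its highest transcript alone, a part of its signal, it was 1.97 with an adjusted p of 0.067. Olfactory bulb and brainstem differed by 0.14 ± 0.37 (adjusted p = 0.87). Of the 20 astrocyte markers, 0 were called by limma in any pair of regions (1 or 2 at an unadjusted p under 0.05), with median log2 differences of the same sign as those of Slc1a2, -0.37 for olfactory bulb against cortex and 0.19 for cortex against brainstem. Relative to those markers, Slc1a2 was 1.28 lower in the olfactory bulb than in the cortex and 1.60 higher in the cortex than in the brainstem (exact permutation within populations, two-sided, both adjusted p = 0.010). Neither was called without the libraries under 5000 genes.

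The regional order of Slc1a3 was the same by mean level. Its median was 115 FPKM in the olfactory bulb, 157 in the cortex and 67.6 in the brainstem, with ranges of 30.9 to 294, 51.1 to 347 and 13.7 to 160. It was 1.26 ± 0.33 higher in the cortex than in the brainstem (limma adjusted p = 0.046), a borderline call that was lost on leaving out most single libraries, with adjusted p up to 0.13. After rescaling it was called too, at 1.33 ± 0.21 (adjusted p = 0.00042), but single libraries were not left out on that scale. Olfactory bulb against brainstem gave 0.86 ± 0.33 (adjusted p = 0.14) as deposited and 0.92 ± 0.21 (adjusted p = 0.00915) after rescaling. Relative to the astrocyte markers, Slc1a3 was 1.03 higher in the olfactory bulb and 1.06 higher in the cortex than in the brainstem (exact permutation, adjusted p = 0.010 and 0.011). Both calls were lost without the libraries under 5000 genes.

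Slc1a4 was called in olfactory bulb against brainstem, where 5.25% of all genes were (4.27% as higher). Its mean was 10.6 ± 7.18 FPKM (SD, n = 10) in the olfactory bulb, 8.48 ± 6.06 in the cortex and 3.995 ± 3.32 in the brainstem. Both olfactory bulb libraries exceeded both brainstem libraries in 5 of 5 populations, and the difference was 1.40 ± 0.36 (limma adjusted p = 0.017). It was not called without olfactory bulb A 1 or brainstem D 1 (adjusted p = 0.053 and 0.054), with the series term (1.04, adjusted p = 0.081) or without the libraries under 5000 genes (1.31, adjusted p = 0.061). Limma made no call by region for Slc1a1, Glul, Glud1 or Got1. Relative to the astrocyte markers, Glud1 was 0.53 higher in the cortex than in the brainstem (exact permutation, adjusted p = 0.016), a call lost after rescaling (adjusted p = 0.19), with a pseudocount of 0.1 (0.16), without the libraries under 5000 genes (0.061) or without cortex B 2 (0.050). The log2 ratio of Slc1a1 to Slc1a3 was 2.10 lower in the cortex than in the brainstem (exact permutation, adjusted p = 0.0036), and not called after rescaling (0.086) or with a pseudocount of 0.1 (0.081). For a regional difference in the contrast with Neg, limma's F test called 0 of 7 members, beside 0.0293% of all genes. For a regional difference in the pattern over the lettered populations it called 0 of 7 too, beside 0.0878%. At an unadjusted p under 0.05 were 2 and 1 members, and 923 and 940 of all 13668 genes. With 2 libraries per group, a missing call does not show that regions are alike.

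The balance of Slc1a2 to Slc1a3 therefore differed by region. The log2 ratio averaged 1.08 ± 0.45 (SD, n = 10) in the olfactory bulb, 2.34 ± 0.55 in the cortex and 1.799 ± 0.56 in the brainstem over the lettered populations. As a linear ratio its median was 2.07 in the olfactory bulb, 5.21 in the cortex and 3.86 in the brainstem. Olfactory bulb and cortex differed by -1.25 (exact permutation within populations, two-sided, adjusted p over 42 ratio tests = 0.0054), and olfactory bulb and brainstem by -0.71 (adjusted p = 0.022). With the highest transcript alone, which leaves out part of the Slc1a2 signal, neither was called (adjusted p = 0.069 and 0.32). The latter was also lost without the libraries of lowest depth (0.058) or under 5000 genes (0.12), and on leaving out any of 6 single libraries, namely olfactory bulb B 1, D 1, D 2 and E 1 and brainstem B 2 and D 1 (adjusted p from 0.056 to 0.065). Cortex and brainstem differed by 0.54 (adjusted p = 0.11). The libraries labelled brainstem D 2 and cortex E 2 had ratios of 0.74 and 1.57, each the lowest of its labelled region, and without both the cortex-brainstem difference was 0.57 with an adjusted p of 0.029.

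The ratio was also lower in the lettered populations (1.74 ± 0.73, SD, n = 30) than in Neg (2.83 ± 1.02, SD, n = 6), by -1.09 (exact permutation within regions, adjusted p = 0.0012). It did not pass without the libraries under 5000 genes (-0.86, adjusted p = 0.085) or with the highest transcript alone, a part of the Slc1a2 signal (-1.996, adjusted p = 0.069). The Glul to Glud1 ratio averaged 2.46 ± 0.71 in the lettered populations and 2.40 ± 0.54 in Neg, a difference of 0.05 (adjusted p = 0.90). It was highest in E at 3.13 ± 0.68 and lowest in C at 1.93 ± 0.45 (SD, n = 6 each), a difference of -1.203 that had the smallest p the 216 arrangements allow (exact permutation p = 0.0093) and did not pass the adjustment (adjusted p = 0.065).

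**Figure D4:**
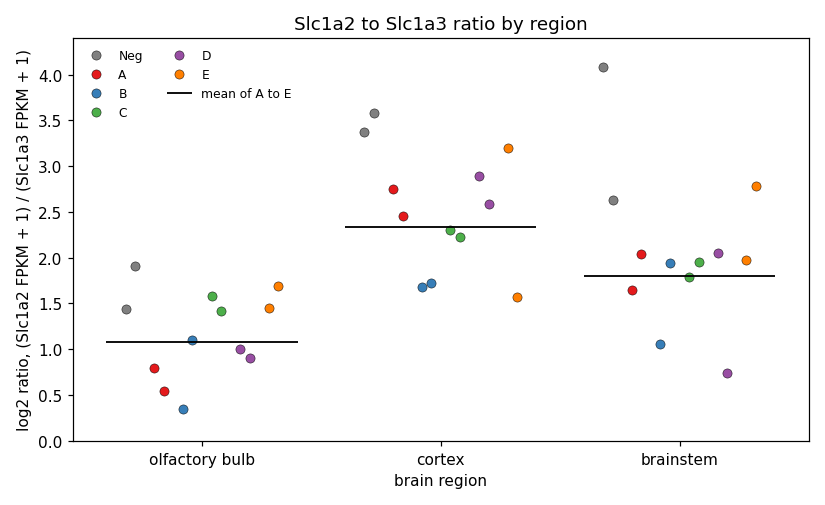
Log2 ratio of Slc1a2 to Slc1a3, with 1 added to each FPKM, in every library by region, with population shown by colour and a line at the mean of the lettered libraries. The mean is 1.08 in the olfactory bulb, 2.34 in the cortex and 1.799 in the brainstem, and the lowest value among the brainstem libraries, 0.74, is that of the library labelled brainstem D replicate 2.

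The other genes of glutamate handling gave a background for these members. Of 42 listed, 38 were tested, and 16 were higher and 0 lower in the lettered populations than in Neg, with a median log2 difference of 0.74, beside 20.3% of all genes called as higher and a median of 0.51. After rescaling, 3 of 40 were higher (Slc38a3, Slc7a11 and Mdh1), beside 1.83% of all genes. Among transporters of glutamine and cystine, 4 of 6 were higher. Slc38a3 (SNAT3), which releases glutamine from astrocytes, measured 3.51 ± 4.11 FPKM in Neg and 23.8 ± 19.0 in the lettered populations (2.44 ± 0.47, limma adjusted p = 0.0011), and Slc7a11, the cystine-glutamate exchanger, 2.26 ± 2.38 and 11.997 ± 7.504 FPKM (2.01 ± 0.33, adjusted p = 0.00025). Its partner chain Slc3a2 (1.94) and the glutamine carrier Slc38a1 (1.04) were the other 2.

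Among the other glutamate-metabolising enzymes, 4 of 15 were higher than in Neg, a share near that of all genes: Psat1, a transaminase of serine synthesis (2.22), Oat, ornithine aminotransferase (1.67), and the alanine aminotransferases Gpt2 (1.63) and Gpt (1.19). In the malate-aspartate shuttle and the mitochondrial carriers, 4 of 7 were, namely the glutamate carrier Slc25a18 (1.98), the malate dehydrogenases Mdh1 (1.92) and Mdh2 (1.81), and the oxoglutarate carrier Slc25a11 (0.96). Of 7 glutamate receptors, 4 were higher: the metabotropic receptor Grm3 (1.93) and the AMPA receptor subunits Gria1 (1.76), Gria2 (1.27) and Gria4 (1.16). None of the 2 vesicular glutamate transporters tested was called.

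By region, 6 of these 38 genes were higher and 1 lower in olfactory bulb against cortex, beside 3.1% and 0.644% of all genes. In olfactory bulb against brainstem 10 were higher and 1 lower, beside 4.27% and 0.988%. In cortex against brainstem 1 was higher and 2 were lower, beside 1.31% and 0.476%. Gad1, which makes GABA from glutamate, measured 19.2 ± 10.6 FPKM in the olfactory bulb, against 2.56 ± 5.62 in the cortex and 2.34 ± 5.35 in the brainstem (SD, n = 10), and differed by 3.07 and 3.18 on the log2 scale (limma adjusted p = 3.3e-05 and 2.9e-05). Gpt2 was 1.81 and 1.69 higher in the olfactory bulb than in the cortex and the brainstem. Slc17a7, the vesicular transporter of cortical excitatory neurons, was 2.36 higher in the cortex than in the brainstem (adjusted p = 0.00039), whereas Gria4 and Gria1 were 2.87 and 2.39 lower there. Neuronal markers moved with these comparisons, as 4 of 12 were higher in the cortex than in the brainstem and 6 were higher and 1 lower in the olfactory bulb than in the brainstem, and their part in the result was not tested.

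Over all 36 libraries after rescaling, the genes most like Slc1a2, Slc1a3, Glul and Glud1 were found by Pearson's r of log2 values. They were sought among 1327 genes with a mean of at least 10 FPKM, and none are given for Slc1a1, Slc1a4 and Got1. For Slc1a2 they were Rorb (0.92), Fam107a (0.82) and Cpe (0.81), and for Slc1a3 Ntrk2 (0.88), Prnp (0.87) and Ttyh1 (0.87). For Glud1 they were Gstm1 (0.82), Sparcl1 (0.80) and Rorb (0.79), and for Glul Luzp2 (0.70), Fam171b (0.69) and Lrrc58 (0.69). Among the members themselves, Slc1a2 and Glud1 were the pair with an r of 0.83, Slc1a2 and Slc1a3 had 0.65, and Slc1a2 and Slc1a1 had -0.29. These libraries share regions and populations, so the values are descriptions.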

How the data were processed

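Tools named per the submitters' processing notes are bcl2fastq 1.8.3, TopHat and Cufflinks, with the mm10 build. For TopHat and Cufflinks, the version is not given in the sources used here. The deposited tables give, per the file headers, the coverage and FPKM of 63241 transcripts in each of 36 libraries. The authors' FPKM is relative to each library's mapped fragments, and these estimates are not counts, so no count test was run.

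Each transcript was placed in a GENCODE vM21 gene by overlap of position (score at least 0.5, leading by 0.1), or by lying within 1 gene and sharing an end within 100 bases. This placed 54056 (85.5%), and FPKM was summed per gene. The deposited coverage divided by FPKM, a relative measure of depth, was 0.0695 in brainstem E 1, 0.316 in olfactory bulb E 1 and 1.17 to 4.08 elsewhere.

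limma 3.58.1 (R 4.3.3) was fitted with trend to log2(FPKM + 1) of 13668 genes with 18 group means and 18 residual degrees of freedom. P-values were adjusted over all genes by Benjamini-Hochberg and called under 0.05. The pseudocount of 1 understates changes of low genes. Ratios were tested by exact permutation within regions or populations, adjusted over 42 ratio tests and over 98 tests relative to astrocyte markers. The fit was tested on simulated data.

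Replicate numbers follow accession order and only name libraries. All 7 members are named, and of the other glutamate genes those called with the largest differences in each list. The members and lists were chosen with earlier results of these data known. Pc, a listed gene, is not analysed here. Promoters are RefSeq's (GRCm38.p6), matched by gene name for all 7 members. For Slc1a3, 0 of 8 GENCODE transcripts held the bases checked just after the RefSeq start. The deposited transcript that holds its signal starts there, at 8710807 on the minus strand.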

Additional observations from a re-analysis of the deposited data

Results flagged for a closer look

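Of 42 sets of 6 libraries (7 genes in 6 populations), 2 held a library far from the other 5 on the log2(FPKM + 1) scale, and chance alone flags about 1 in 20 such sets. Slc1a4 was listed at 0 FPKM in brainstem B replicate 2, whereas the other 5 libraries of population B lay between 9.57 and 25.4 FPKM. Got1 was at 0.137 FPKM in cortex D replicate 2, whereas the other 5 libraries of population D lay between 8.66 and 18.3 FPKM. That D library had 3091 genes at 1 FPKM or more, and the B library 5994.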

How the results depend on the processing

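No paired analysis was possible because the labels give no replicate numbers. The number of the 7 genes called against Neg was 5 over the lettered populations, and 2 after rescaling, 3 under quantile normalization and 3 without the libraries under 5000 genes. With the same 3 settings in turn it went from 4 to 1, 1 and 0 in A and from 6 to 2, 2 and 3 in B. In D it fell from 2 to 0 without the libraries under 5000 genes, and in E it rose from 0 to 1 after rescaling and under quantile normalization. B against E (4 called) gave 1 after rescaling, 0 under quantile normalization, 0 with the series term (a covariate for the number series), and 2 without the libraries of lowest depth or under 5000 genes. C against D (3 called) gave 0 after rescaling, under quantile normalization, with a pseudocount of 0.1, with array quality weights, with the series term, without the libraries under 5000 genes and without the libraries labelled brainstem D 2 and cortex E 2. C against E (6 called) gave 2 after rescaling, 1 under quantile normalization, 0 with the series term and 3 without the libraries under 5000 genes. In these pairs the series term cannot tell series from population. A against B gave 1 in the first number series, and A against E gave 1 without the 2 libraries that went against their labels. Olfactory bulb against brainstem (1 called) gave 2 after rescaling and under quantile normalization, and 0 with the series term, in the first series and without the libraries under 5000 genes. Cortex against brainstem (2 called) gave 0 with the highest transcript alone and in the first series, and 1 with array quality weights, the series term or no libraries of lowest depth. The region dependence of the contrast with Neg gave 1 in the first series. The 5 ratio calls became 3 after rescaling, 2 with the highest transcript, 3 without the libraries under 5000 genes and 8 without the 2 libraries that went against their labels, and the 9 calls relative to astrocyte markers became 0 without the libraries under 5000 genes.

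Leaving out 1 library at a time gave 1 to 5 calls in A, 2 to 6 in D, 0 to 1 in A against B, 0 to 2 in A against E, 0 to 2 in B against D, 2 to 5 in B against E, 0 to 4 in C against D, 0 to 4 in D against E, 0 to 1 in olfactory bulb against brainstem, 1 to 3 in cortex against brainstem, and 4 to 8 for the ratios. Directions turned for Got1 in B against Neg under quantile normalization (-0.096), Glul in B against E (-0.860) and in C against E (-0.300) after rescaling and in C against E under quantile normalization (-0.171), and Slc1a4 in C against E with the series term (-0.0106). Without the libraries under 5000 genes no brainstem Neg or E library remains, so those contrasts use the other regions, and fewer samples were compared. For the other settings the cause was not tested. The adding of the ambiguous Slc1a1 transcript was chosen after seeing the data and changed no call over the lettered populations. Values of Slc1a1 and of Slc1a4 in Neg lie near 0, which limits their differences.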
